A study of Homo sapiens with 2 samples.

Results

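CDX2, SOX9, KLF5, GATA6, HNF4A, FOXA1 and FOXA2 are genes for transcription factors that give intestine, liver and other endodermal tissues their identity. These 7 symbols were looked up by name in a count table of 54261 features, and all 7 were found. Of these, 6 had a read in either of the 2 libraries and 4 reached a CPM of 1, in scaled read counts relative to library size, in at least 1 library. The table came from RKO cells, an established human colorectal carcinoma line labelled as adenocarcinoma cells. One library was from cells transfected with a control siRNA (genotype label WT) and one from cells transfected with siHNRNPM, an siRNA against the RNA-binding protein gene HNRNPM (genotype label HNRNPM knockdown). With 1 library per group there is no replicate check and no test between conditions. The time between transfection and harvest and the sequences of the siRNAs are not given in the sources used here.

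CDX2 is a homeobox factor that specifies intestinal epithelium, and GATA6 is a zinc-finger factor of early endoderm and of the gut. SOX9, an HMG-box factor, and KLF5, a zinc-finger factor, are known from the proliferating cells of the crypt. HNF4A is a nuclear receptor that drives the gene programmes of hepatocytes and enterocytes, and FOXA1 and FOXA2 are forkhead factors that open chromatin in endoderm before other factors bind. HNF4A and the FOXA factors act on many of the same enhancers in liver and gut.

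The control library held 19931360 reads in genes and the siHNRNPM library 13056118. HNRNPM had 2870 reads in the control library and 1042 in the siHNRNPM library, or 144 and 79.6 CPM, a log2 ratio of -0.86 (95% counting interval -0.96 to -0.76). Its direction goes with the label, but at 0.552 of the control level (0.513 to 0.592) HNRNPM itself was less than 2-fold lower. Counting intervals here and below are exact Clopper-Pearson intervals of the split of a gene's reads between the libraries. They cover counting error and leave out variation between cultures, and PCR duplicates make them too narrow where reads share a molecule. Of the 9 genes set as a check of the colon epithelial label, EPCAM (179 and 151 reads), KRT8 (547 and 450) and KRT18 (632 and 433), control library first, were present in both libraries. The gut-restricted markers KRT20 (0 and 0), VIL1 (1 and 0) and CDH17 (0 and 2) were at or near 0, KRT19 had 1 and 1 read, and E-cadherin (CDH1) had 10 and 1. CDX2, the ninth, was present.

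The promoters of CDX2, FOXA1 and HNF4A are shown first, since CDX2 and FOXA1 were read in both libraries whereas HNF4A, which also has an upstream promoter (P2) and a downstream one (P1), was almost without reads. Each window runs from 250 bases before to 50 bases after a RefSeq gene start (GRCh38.p14), and 5 of the 7 genes had a window. Capitals mark the letters of 6 factor families, searched on both strands. They were TGTTTAC or TGTTTGC for FOX factors, AGATAA for GATA factors, CAAAGTCCA for HNF4, TTTATTG or TTTATGG for CDX, ACAATGG or ACAAAGG for SOX and CCCCACCC for KLF.
CDX2 promoter, chr13:27969266-27969565, minus strand: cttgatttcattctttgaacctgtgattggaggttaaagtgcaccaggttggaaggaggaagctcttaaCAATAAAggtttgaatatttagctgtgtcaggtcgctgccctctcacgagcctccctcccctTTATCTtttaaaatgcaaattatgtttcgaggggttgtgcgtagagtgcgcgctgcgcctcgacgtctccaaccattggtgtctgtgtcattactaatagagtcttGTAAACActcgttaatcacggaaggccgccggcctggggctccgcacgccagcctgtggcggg
FOXA1 promoter, chr14:37595200-37595499, minus strand: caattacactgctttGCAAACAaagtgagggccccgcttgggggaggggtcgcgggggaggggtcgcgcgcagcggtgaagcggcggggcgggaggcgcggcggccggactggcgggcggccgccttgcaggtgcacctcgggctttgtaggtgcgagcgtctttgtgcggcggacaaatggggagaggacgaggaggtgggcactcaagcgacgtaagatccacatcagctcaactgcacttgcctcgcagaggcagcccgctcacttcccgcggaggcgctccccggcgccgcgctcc
HNF4A upstream promoter, chr20:44355449-44355748, plus strand: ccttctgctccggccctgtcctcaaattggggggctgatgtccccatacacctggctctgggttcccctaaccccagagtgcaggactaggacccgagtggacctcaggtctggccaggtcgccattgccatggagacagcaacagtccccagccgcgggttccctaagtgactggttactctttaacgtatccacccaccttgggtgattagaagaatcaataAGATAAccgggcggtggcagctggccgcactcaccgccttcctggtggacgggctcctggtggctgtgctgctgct
HNF4A downstream promoter, chr20:44400989-44401288, plus strand: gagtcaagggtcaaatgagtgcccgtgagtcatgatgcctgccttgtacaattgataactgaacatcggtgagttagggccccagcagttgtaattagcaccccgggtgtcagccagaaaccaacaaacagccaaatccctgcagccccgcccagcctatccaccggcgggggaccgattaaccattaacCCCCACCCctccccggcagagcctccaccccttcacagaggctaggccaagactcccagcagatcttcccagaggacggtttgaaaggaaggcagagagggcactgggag

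The CDX2 window held 1 match each for FOX, GATA and CDX letters. The FOXA1 window held 1 FOX match. The upstream HNF4A window held 1 GATA match, and the downstream one held 1 KLF match. Of the other windows, that of GATA6 held 1 KLF match, the first of KLF5's 2 windows held 1 SOX match and the second held none. These letters are not rare. Among 35116 RefSeq windows of the same length, 7.17% held FOX letters, 10.3% GATA, 6.35% CDX, 8.25% SOX, 11.1% KLF and 0.384% HNF4 letters. The letters were chosen after the windows had been read, so matches set beside these shares are no evidence of enrichment. A match describes the sequence only, since binding was not measured.

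CDX2 was the most reduced of the 4 factors that reached 1 CPM. It had 212 reads in the control library and 106 in the siHNRNPM library, which is 10.7 and 8.10 CPM. Its siHNRNPM over control log2 ratio was -0.40 (-0.75 to -0.05), or 0.760 of the control level (0.596 to 0.964). The upper bound lay close to a ratio of 1, and with the control library thinned to the depth of the other the value was -0.32 (-0.71 to 0.06), an interval that spans 1. The gene occupies chromosome 13, 27962137 to 27971139, minus strand (GRCh38, GENCODE 29, protein-coding).

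KLF5 went the other way. It had 221 reads in the control library and 181 in the siHNRNPM library, or 11.1 and 13.8 CPM. Its log2 ratio was 0.32 (0.02 to 0.61), which is 1.24 times the control level (1.02 to 1.52). KLF5 is also on chromosome 13 (73054976 to 73077542, plus strand).

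GATA6 and FOXA1 had intervals that span a ratio of 1. GATA6 (chromosome 18, 22169443 to 22202528, plus strand) had 168 reads in the control library and 94 in the siHNRNPM library, or 8.45 and 7.18 CPM. Its log2 ratio was -0.23 (-0.61 to 0.14). FOXA1 (chromosome 14, 37589984 to 37596059, minus strand) had 173 and 117 reads, or 8.70 and 8.94 CPM, and its log2 ratio was 0.04 (-0.31 to 0.39). In fold terms the counting interval of FOXA1 ran from 0.806 to 1.31 of the control level, so a 2-fold difference between these libraries lay outside it. The same holds for CDX2, KLF5 and GATA6, whose intervals stayed between ratios of 0.596 and 1.52.

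SOX9, HNF4A and FOXA2 did not reach 1 CPM. SOX9 (chromosome 17, 72121020 to 72126420, plus strand) had 12 reads in the control library and 9 in the siHNRNPM library, or 0.604 and 0.688 CPM. Its log2 ratio of 0.19 had an interval from -1.24 to 1.56, so a 2-fold difference was not detectable at this depth. HNF4A (chromosome 20, 44355700 to 44434596, plus strand) had 0 reads in the control library and 1 in the siHNRNPM library. FOXA2 (chromosome 20, 22581005 to 22585455, minus strand) had 0 in both. A count of 0 allows up to 3 counts, equal to 0.151 CPM in the control library and 0.229 CPM in the siHNRNPM library. No fold is given for HNF4A and FOXA2.

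**Figure D1:**
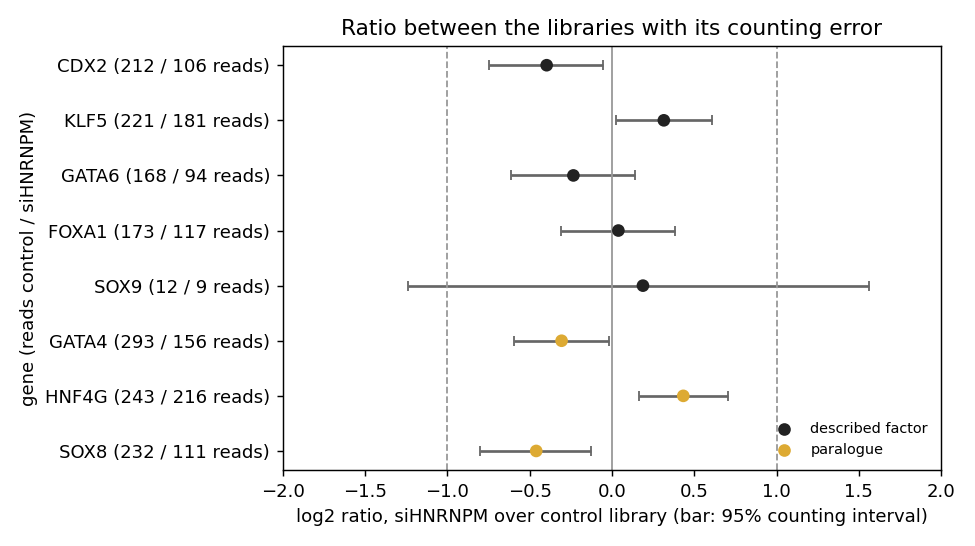
Log2 ratio of the siHNRNPM over the control library (x axis) for the 5 factors with more than 3 reads (black) and the 3 paralogues described with them (yellow), with reads in the control and siHNRNPM libraries beside each name. Bars are 95% counting intervals and dashed lines mark a 2-fold difference. CDX2 at -0.40 lies left of a ratio of 1 and KLF5 at 0.32 right of it, both inside the dashed lines, and the bar of SOX9 crosses both of them.

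Of the 4 factors that reached 1 CPM, 0 were at least 2-fold higher and 0 at least 2-fold lower with an interval that excludes a ratio of 1, against 2.45% and 1.49% of the 12925 genes measured. A ratio of 1 lay below the interval of 1 factor (KLF5) and above that of 1 (CDX2), against 22.0% and 26.1% of all measured genes. With 4 genes these counts are near the background and show nothing particular to the factors. Their median log2 ratio was -0.10, and that of all measured genes was -0.01. Among the 723 genes with a control level from 8 to 12 CPM, the range that holds these 4, the middle of the log2 ratios ran from -0.25 to 0.23 (quartiles) and the central 95% from -0.90 to 0.72. CDX2 and KLF5 lay outside the quartiles and inside the central 95%, and GATA6 and FOXA1 lay between the quartiles.

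**Figure D2:**
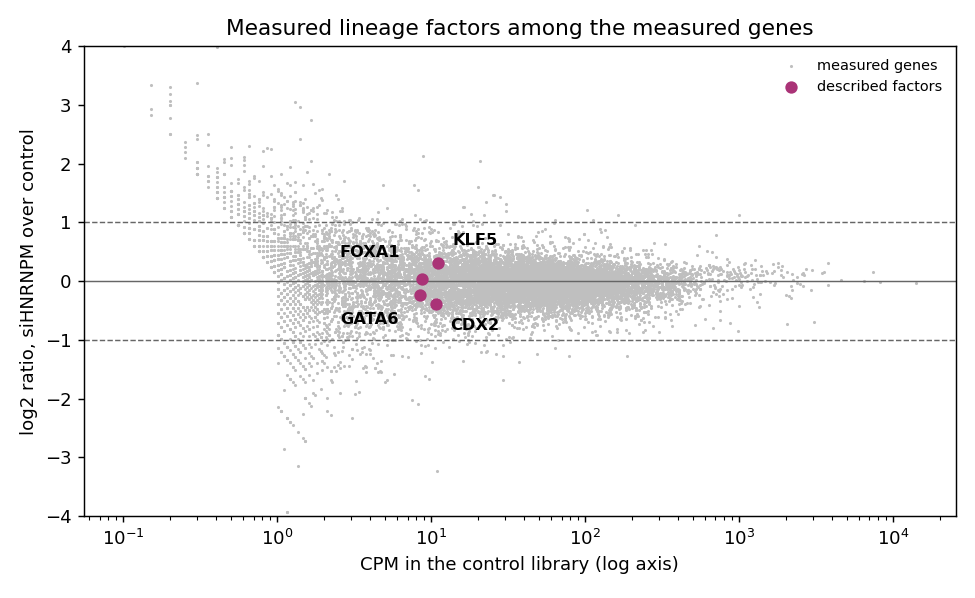
CPM in the control library (x axis, log scale) against the log2 ratio of the siHNRNPM over the control library (y axis) for 12904 of the 12925 measured genes (grey). The other 21 have no control reads or a log2 ratio beyond 4 in size. CDX2, KLF5, GATA6 and FOXA1 (purple) sit within the cloud of genes of their own level, inside the dashed lines of a 2-fold difference.

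The balance among the factors within a library needs no scaling between libraries. CDX2 had 0.959 reads per KLF5 read in the control library and 0.586 in the siHNRNPM library, a log2 difference of -0.71 (exact conditional interval -1.17 to -0.26). KLF5 per GATA6 went from 1.32 to 1.93 (log2 difference 0.55, 0.07 to 1.03). These were the 2 of 6 pairs whose interval excluded 0, and KLF5 is in both. The intervals were not adjusted for the number of pairs. The share among pairs of other genes was not computed, so this count shows nothing particular to the factors. CDX2 per GATA6 was 1.26 and 1.13, a log2 difference of -0.16 (-0.68 to 0.36). The pairs with FOXA1 had log2 differences of -0.44 for CDX2 (-0.93 to 0.06), 0.28 for KLF5 (-0.18 to 0.74) and -0.27 for GATA6 (-0.79 to 0.24).

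Levels were compared between genes per kilobase of the longest annotated transcript. Which transcripts the cells express was not measured, so the order of levels rests on this choice of length. In the control library the order was KLF5 at 3.12 CPM per kb, FOXA1 at 3.04, CDX2 at 2.63 and GATA6 at 2.24, and neighbours in that order had overlapping Poisson intervals. SOX9 followed at 0.153, with an interval (0.0793 to 0.268) below that of GATA6. In the siHNRNPM library the order was the same, with KLF5 at 3.88, FOXA1 at 3.12, CDX2 at 1.998, GATA6 at 1.91 and SOX9 at 0.175. There the intervals of FOXA1 (2.58 to 3.74) and CDX2 (1.64 to 2.42), which take these lengths as exact, no longer overlapped. All were low for expressed genes: the median over 10809 measured protein-coding genes was 10.7 CPM per kb in the control library, and between 14.8% and 19.5% of those genes lay below GATA6, CDX2, FOXA1 or KLF5 there.

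In the HNF4 and SOXE families a paralogue was read far more than the named factor. These close paralogues, taken as whole families, were set beside the factors after their values were seen. HNF4G, the sister gene of HNF4A with the same type of DNA-binding domain, had 243 reads in the control library and 216 in the siHNRNPM library, where HNF4A had 0 and 1. Its log2 ratio was 0.43 (0.16 to 0.70). SOX8, which belongs with SOX9 and SOX10 to the SOXE group, had 232 and 111 reads, where SOX9 had 12 and 9 and SOX10 had 0 and 0. Its log2 ratio was -0.46 (-0.80 to -0.13). SOX9 made up 5.18% of the SOXE level per kb in the control library and 7.88% in the siHNRNPM library.

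FOXA1 carried nearly all reads of its family, with FOXA3 at 1 and 2 reads beside FOXA2 at 0 and 0. CDX2 likewise was the CDX gene with reads, since CDX1 and CDX4 had 0 in both libraries. GATA6 shared its level with GATA4, another endodermal GATA factor, which had 293 and 156 reads, a log2 ratio of -0.31 (-0.60 to -0.02) and a copy on an alternate sequence of the genome. GATA5 had 0 in both. Reads of GATA6 per GATA4 read were 0.573 and 0.603, a log2 difference of 0.07 (-0.41 to 0.55), so the balance of this pair differed by less than its counting error. KLF5 was a minor KLF gene, at 2.20% of the level per kb of the 17 KLF genes in the control library and 2.81% in the siHNRNPM library, while KLF6 took 39.5% and 36.4%.

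**Figure D3:**
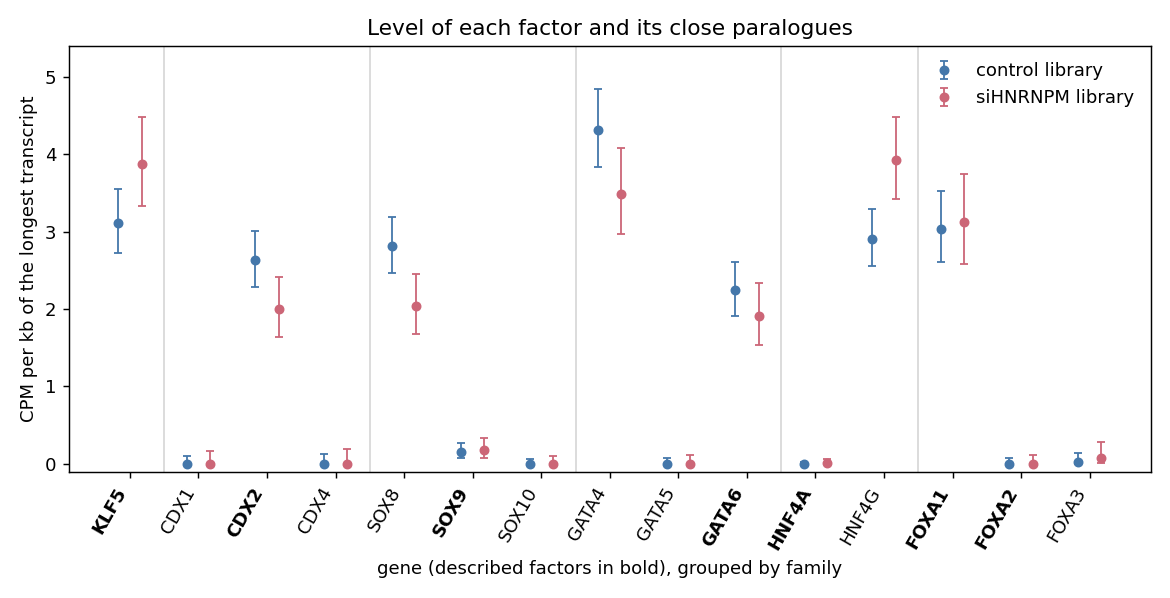
CPM per kb of the longest transcript (y axis) for the 7 factors (bold) and their close paralogues, grouped by family, in the control (blue) and siHNRNPM (red) libraries. Bars are exact 95% Poisson intervals of the reads. HNF4G and SOX8 stand well above HNF4A and SOX9 in both libraries, and FOXA1 and CDX2 are the genes of their families with more than a few reads.

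Across the 27 paralogues listed, 15 reached 1 CPM. Of these, 0 were 2-fold higher or lower, against 2.45% and 1.49% of all measured genes. The intervals of 4 lay above a ratio of 1 (HNF4G, KLF10, KLF11 and KLF16). Those of 7 lay below it (SOX8, GATA4, KLF2, KLF4, KLF6, KLF9 and KLF12). Over all measured genes the shares were 22.0% above and 26.1% below. More reads narrow an interval, and the part of gene level in these counts was not tested. The median log2 ratio of the 15 paralogues was 0.00. The most abundant was KLF6, a broadly expressed KLF factor, with 5179 and 3063 reads and a log2 ratio of -0.15 (-0.22 to -0.09). KLF10, known as a TGF-beta inducible factor, had 0.18 (0.09 to 0.27) and KLF16 had 0.34 (0.18 to 0.49).

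Of 38 other transcription factor genes of gut and liver, 17 reached 1 CPM, with a median log2 ratio of 0.05. Against 2.45% and 1.49% of all measured genes, the count at least 2-fold higher was 0 and the count at least 2-fold lower was 1. That gene was MLXIPL, which encodes the glucose-responsive factor ChREBP, with 70 reads in the control library and 20 in the other, 0.434 of the control level (0.250 to 0.722, log2 ratio -1.20). The intervals of 3 lay above a ratio of 1 (HNF4G, CEBPB and PPARA). Those of 5 lay below it (GATA4, PROX1, KLF4, TBX3 and MLXIPL). Over all measured genes the shares were 22.0% and 26.1%, so these counts are near the background. HNF4G, GATA4 and KLF4 were also counted among the paralogues above. Among the most abundant of the 17, the ONECUT factor gene ONECUT2 had 999 and 653 reads and a log2 ratio of -0.01 (-0.15 to 0.13). The fatty acid receptor gene PPARA had 984 and 800 reads (0.30, 0.17 to 0.44), and its partner RXRA had 861 and 564 (-0.01, -0.16 to 0.15). Another 11 of the 38 had 0 reads in both libraries, among them CDX1, GATA5, ONECUT1, the secretory lineage factor ATOH1 and the bile acid receptor gene NR1H4.

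Genes of intestinal differentiation and of crypt cells were largely unread, while CDX2 had reads in both libraries. Of 48 listed, 41 had at most 3 reads in each library and 20 had 0 in both. Their summed level was 106 CPM in the control library and 105 CPM in the siHNRNPM library, most of it from EPHB2 and CA2. Of the 6 that reached 1 CPM, 0 were 2-fold higher or lower, against 2.45% and 1.49% of all measured genes. The interval of 1 lay above a ratio of 1 and those of 2 below it, against 22.0% and 26.1%. With 6 genes these counts show nothing particular to the list. Its median log2 ratio was -0.03. The ephrin receptor gene EPHB2, known from crypt cells and as a WNT target, had 966 and 707 reads (log2 ratio 0.15, 0.01 to 0.29) and the carbonic anhydrase gene CA2 had 786 and 455 (-0.19, -0.36 to -0.02). AXIN2, a WNT feedback gene, had 158 and 66 (-0.66, -1.09 to -0.23).

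A few liver genes had reads mainly in the siHNRNPM library, where HNF4A had 1 read and FOXA2 0. The liver list was chosen with earlier results of these data known, so its direction is no independent evidence. Of 75 genes, 11 reached 1 CPM. Of these, 6 did so through the siHNRNPM library alone, so the filter let them in because they were high there, and counts over the 11 are no support for a direction. All 5 that passed the 2-fold rule were among these 6. The 5 liver genes with 1 CPM or more in the control library had log2 ratios from -0.32 to 0.35. Of these genes, 0 passed the rule upward and 0 downward, against 2.45% and 1.49% of all measured genes. ALB, which encodes albumin, had 0 reads in the control library and 77 in the siHNRNPM library, and its counting interval began at a 31.0-fold higher level (log2 ratio 4.95). AFP (1 and 174), SERPINA1 (6 and 177), SERPINF1 (1 and 543) and the complement gene C3 (16 and 25) were the other 4 that passed. SERPINA1 and SERPINF1 have a copy on an alternate sequence of the genome, and 3 genes passed without such genes.

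The rest of the liver list was mostly unread. In it, 55 of 75 genes had at most 3 reads in each library and 33 had 0 in both, and 64 did not reach 1 CPM. Of 7 defining liver markers, TTR and APOA1 had 0 reads in both libraries, FGB had 0 and 1, APOB 0 and 6 and AHSG 2 and 8. All 7 together had 3 reads in the control library and 266 in the siHNRNPM library, most of them from ALB and AFP. The 3 liver genes with the highest control level had log2 ratios of 0.33 (TFR2, 0.09 to 0.56), 0.22 (ASGR1, -0.08 to 0.52) and -0.32 (F12, -0.66 to 0.02). The summed level of the list was 50.6 CPM in the control library and 135.3 CPM in the siHNRNPM library. These sums include SERPINF1 (0.0503 and 41.5 CPM), SERPINA1 (0.302 and 13.5), AFP (0.0503 and 13.3) and ALB (0 and 5.88). Those genes reached 1 CPM through the siHNRNPM library alone, so the sums do not describe the list as a whole. The liver-enriched factors beside the liver genes were FOXA3 at 1 and 2 reads, ONECUT1 at 0 and 0 and CEBPA at 128 and 100 (log2 ratio 0.25, -0.14 to 0.64).

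**Figure D4:**
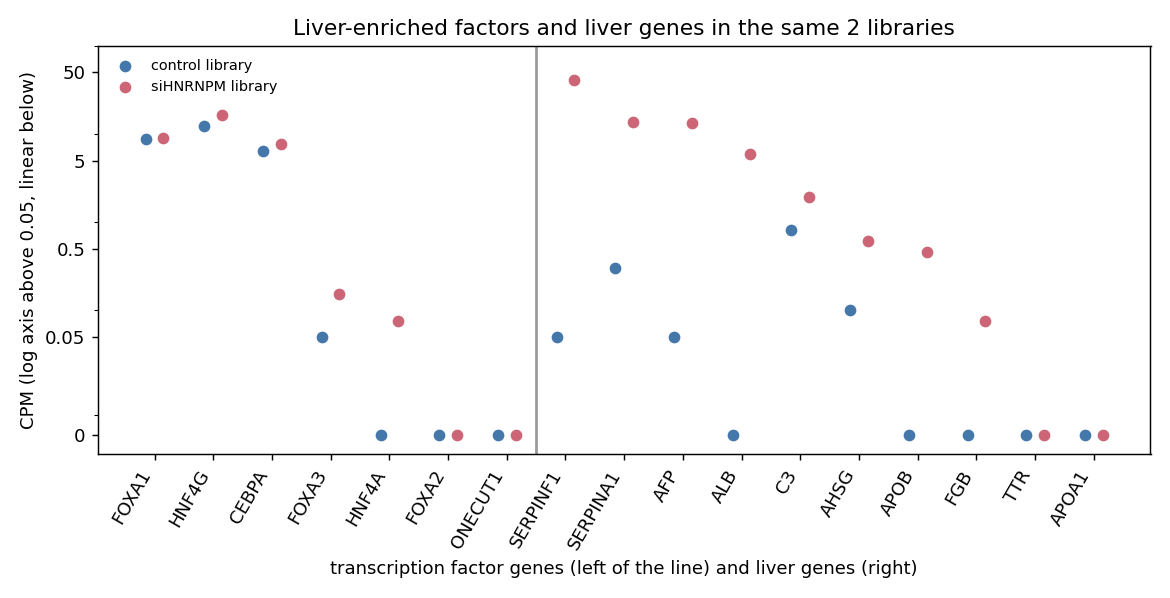
CPM (y axis, log scale above 0.05 and linear below) in the control (blue) and siHNRNPM (red) libraries for liver-enriched transcription factor genes and HNF4G (left of the line) and for liver genes (right). HNF4A and FOXA2 sit at or near 0 in both libraries, while ALB has reads in the siHNRNPM library alone and TTR and APOA1 have none in either.

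Markers of other cell types were mostly absent. Of 22 listed, 15 had at most 3 reads in each library and 4 reached 1 CPM. Among fibroblast genes, COL1A1 (13 and 21 reads) and COL1A2 (8 and 14) passed the 2-fold rule upward, but both reached 1 CPM through the siHNRNPM library alone, so this is no support for a direction. COL3A1 had 3 and 2 reads, DCN 0 and 0, LUM 0 and 1, PDGFRA 11 and 16 and PDGFRB 7 and 9, and the immune gene PTPRC had 2 and 0. CD68, the most abundant of the list, had 765 CPM in the control library and 885 CPM in the siHNRNPM library. The list summed to 769 and 891 CPM. The part of other cells in the values of the factors or the liver genes was not tested. In bulk RNA, a change in the number of cells that express a gene cannot be told apart from a change in its level per cell.

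Genes within 100 kb of each factor were read as well. TTC6 overlaps FOXA1 by 213 bases on the opposite strand and had 145 and 75 reads (log2 ratio -0.35, -0.77 to 0.06). Whether counting used strand is not given in the sources used here, so reads in the overlap cannot be assigned with certainty. MIPOL1, on the other side of FOXA1 at 37623 bases, had 280 and 103 reads and a log2 ratio of -0.84 (-1.18 to -0.51), an interval apart from that of FOXA1. PDX1, the pancreatic homeobox gene next to CDX2 at 35906 bases, had 56 and 47 reads (0.35, -0.24 to 0.94), and FLT3 had 15 and 6.

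Non-coding partners were almost silent. GATA6-AS1, which overlaps the start of GATA6 on the other strand by 436 bases, had 5 reads in the control library and 1 in the siHNRNPM library. LINC00543 near CDX2 had 1 and 1, while SOX9-AS1, HNF4A-AS1 and LINC00261 next to FOXA2 had 0 and 0. The region around HNF4A was not silent as a whole. FITM2, a lipid droplet gene at 44531 bases, had 234 and 87 reads (-0.82, -1.20 to -0.46). TTPAL had 983 and 709 (0.13, -0.01 to 0.27), PKIG 183 and 99 (-0.28, -0.65 to 0.08) and SERINC3 5703 and 3721 (-0.01, -0.07 to 0.05). The pseudogene RPL37AP1, whose reads can belong to its parent gene, had 116 and 74. PIBF1 beside KLF5 had 330 and 183 (-0.25, -0.52 to 0.02).

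In the longest annotated 3′ UTR, the sequence GTGAGAA was absent from CDX2, SOX9, KLF5, GATA6, FOXA1 and FOXA2 and also from HNF4G, SOX8 and GATA4. HNF4A, almost without reads here, held 2 copies. Its 3′ UTR was the longest of these genes, at 4931 bases, followed by HNF4G at 2747. The part of 3′ UTR length in the matches or in the medians below was not tested. The sequence was picked because genes that hold it had lower ratios in these same libraries, so the medians that follow restate that choice. Among 10786 measured protein-coding genes with an annotated 3′ UTR, 14.7% held it, with a median log2 ratio of -0.14 against -0.01 for the others.

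The protein-coding genes most like each factor were those nearest in log2 CPM over the 2 libraries, which with 2 points is a match of level and ratio only. For CDX2 these were STK32C and ZNF253, each with 209 and 106 reads. For KLF5 they were RELB (220 and 180) and BRF2 (218 and 181), and for GATA6 IRF1 (171 and 96) and LOC102724023 (165 and 96). For FOXA1 they were C1QTNF1 (173 and 120) and FRAT2 (172 and 114). Between 17 and 34 of 11074 genes lay within 0.1 log2 units of each factor.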

How the data were processed

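RNA-seq of 2 libraries of RKO cells was used, 1 per group, with groups from the treatment labels and columns matched by title. Values were deposited by the authors as raw read counts, 1 row per symbol. The submitters' processing notes list HISAT2 2.0.4 and GRCh38, with no role given. The read counter, annotation and use of strand are not given in the sources used here.

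Counts were scaled by TMM (edgeR 4.0.16, R 4.3.3, factors 0.998 for the control and 1.00 for the siHNRNPM library) to CPM. A gene was measured if it reached a CPM of 1 in either library. The log2 ratio, with a count of 0 set to 0.5, has an exact Clopper-Pearson 95% interval (scipy 1.17.1) for counting error only. A 2-fold call needs a log2 ratio of 1 in size and an interval that excludes a ratio of 1. On simulated counts for 12925 genes of this comparison, 100 of 100 genes raised 4-fold and 100 of 100 lowered 4-fold were called, and 41 of 12725 unchanged ones. Recovery of 2-fold changes was not simulated. With 1 library per group, variation between cultures could not enter the simulation, so these counts are no error rate for the calls in these data.

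Positions and transcripts came from GENCODE 29 and promoter windows from RefSeq (GRCh38.p14). The members and lists were chosen with earlier results of these data known, and the motif letters after the windows had been read. Some genes and a motif are not reported here and were taken out of the lists after their values were seen. From each list, up to 6 genes called 2-fold and the 3 with the highest control CPM were named. Genes named where 5 or fewer met a count, the further liver factors and the close paralogues were chosen after their values were seen. Alternatives covered scaling (total count, DESeq2 1.42.0 size factors, upper quartile), the CPM filter, thinning of the control library, the value given to 0, the genes counted and the fold required.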

Additional observations from a re-analysis of the deposited data

How the results depend on the processing

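CDX2, KLF5, GATA6, FOXA1 and SOX9 kept the sign of their log2 ratios under every alternative run, and so did HNRNPM. Only the scalings and the thinning could move these ratios. The CPM filter, the value given to 0 and the genes counted leave the ratio of a gene read in both libraries unchanged. A change of scaling shifts all genes by the same amount. The exception to the calls of the factors was the thinned control library. There the CDX2 interval spanned a ratio of 1 (-0.32), and the count of factors with an interval below 1 was 0. The thinned library was 1 random draw. KLF5 kept an interval above 1 under each alternative, with lower bounds from 0.01 (DESeq2 size factors) to 0.06 (upper quartile). Without a CPM filter, 10 liver genes were at least 2-fold higher and the intervals of 11 lay above 1, since genes with few reads then enter. Without genes with an alternate copy, 3 liver genes were at least 2-fold higher, since SERPINA1 and SERPINF1 are then left out. With upper-quartile scaling or the thinned control library, 1 intestinal gene had an interval below 1. At a CPM of 5 or more, 0 of the other gut and liver factors were 2-fold lower, since MLXIPL falls under that filter. The background counts of 317 higher and 193 lower became 602 and 301 without a filter and 70 and 50 at a CPM of 5 or more. The number of factors at least 2-fold higher or lower was 0 under each alternative, also with 1.5-fold required. It was 0 with the whole interval beyond 2-fold too, but that rule is stricter than the main one and could give no other result. No paired analysis was possible because each group has 1 library. Depth limits SOX9, HNF4A and FOXA2, for which a 2-fold difference was not detectable.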
